A study of Sus scrofa with 6 samples.

Results

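E21-only regions were stretches of the pig genome in which both libraries of embryonic day 21 (E21) had a called peak of open chromatin and none of the 4 libraries of embryonic days 18 (E18) and 28 (E28) had one. Merging all peaks of the 6 libraries with an overlap of 1 bp or more gave 294825 regions, and 6505 of them (2.21%) met this rule. The libraries came from single-cell ATAC-seq, in which the transposase Tn5 cuts accessible DNA and fragments are tagged by the droplet they came from. Somites were sampled at E18 and E21 and myotomes at E28, in purebred Tibetan embryos (ZZ) and in Duroc × Tibetan embryos (DZ), with 1 library per stage and breed and no treatment. Each library pooled 5 embryos of 1 sow, so embryos within a library cannot be told apart, and at E28 stage and tissue changed together and cannot be told apart. The peak calls chose the regions, so their number, their openness at E21 and their absence at the other stages are descriptions and were not tested.

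Somites are blocks of paraxial mesoderm that form beside the neural tube. Their ventral part, the sclerotome, gives rise to vertebrae and ribs, and their dorsal part gives rise to dermis and to the myotome, from which trunk muscle forms. Regulatory DNA such as promoters and enhancers is usually accessible in the cells that use it, and enhancers are often open in few cell types and for a limited time.

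The values rest on 9286 barcodes of E21 ZZ and 9347 of E21 DZ that had 2000 to 30000 counts each, and their counts summed to 109989839 and 106665140. E21-only regions held 0.562% of the E21 ZZ counts and 0.588% of the E21 DZ counts. Peaks numbered 217138 and 199846 in the E18 libraries, 171898 and 188857 in the E21 libraries, and 131975 and 137769 in the E28 libraries (ZZ and DZ). A library's matrix lists only its own called peaks, and openness of these regions at E18 or E28 is therefore unknown rather than measured as 0. Between 113 and 157 barcodes (1.22% to 1.66%) were shared by any pair of libraries.

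The 8 regions that the results turn on are printed here as the 300 bp about the centre of the part shared by the ZZ and DZ peaks. The sequences are those of the plus strand of Sscrofa11.1 from RefSeq, in lower case. Capitals mark every match, on either strand, to the E-boxes CAGCTG and CAGATG and CATATG, which basic helix-loop-helix factors such as the myogenic factors bind, to the SOX motifs ACAAAG and ACAATG, to the homeobox motif TAATTA and to the POU motif ATGCAAAT. Each region is named by the gene with the nearest annotated start. The PAX3 region is shown as the most open one assigned to a gene of muscle progenitors. The OLIG3, PTGER2, LOC110261615, LOC102162079 and TRNAV-UAC regions are shown because each was concentrated in 1 group of cells, and the MYT1L and ZBP1 regions because they were the most open promoter region and the most open region of all.
PAX3 region, chr15:123969142-123969441: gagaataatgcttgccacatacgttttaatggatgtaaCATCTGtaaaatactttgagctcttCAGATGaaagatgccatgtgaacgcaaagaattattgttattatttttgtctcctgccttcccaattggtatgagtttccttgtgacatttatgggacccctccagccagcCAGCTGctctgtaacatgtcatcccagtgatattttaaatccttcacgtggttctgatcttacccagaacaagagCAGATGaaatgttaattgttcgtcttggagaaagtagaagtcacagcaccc
OLIG3 region, chr1:26761227-26761526: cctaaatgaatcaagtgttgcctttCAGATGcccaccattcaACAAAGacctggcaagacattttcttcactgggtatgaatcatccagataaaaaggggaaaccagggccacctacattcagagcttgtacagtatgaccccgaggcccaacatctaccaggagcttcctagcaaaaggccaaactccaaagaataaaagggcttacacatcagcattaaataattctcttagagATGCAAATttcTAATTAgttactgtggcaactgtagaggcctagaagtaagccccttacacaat
PTGER2 region, chr1:182053306-182053605: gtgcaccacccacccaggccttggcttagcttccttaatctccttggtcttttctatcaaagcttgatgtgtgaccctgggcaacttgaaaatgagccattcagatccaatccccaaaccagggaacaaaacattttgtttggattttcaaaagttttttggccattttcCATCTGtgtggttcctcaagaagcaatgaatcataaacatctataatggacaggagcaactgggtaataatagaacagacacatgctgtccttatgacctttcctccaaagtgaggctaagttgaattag
LOC110261615 region, chr7:84021681-84021980: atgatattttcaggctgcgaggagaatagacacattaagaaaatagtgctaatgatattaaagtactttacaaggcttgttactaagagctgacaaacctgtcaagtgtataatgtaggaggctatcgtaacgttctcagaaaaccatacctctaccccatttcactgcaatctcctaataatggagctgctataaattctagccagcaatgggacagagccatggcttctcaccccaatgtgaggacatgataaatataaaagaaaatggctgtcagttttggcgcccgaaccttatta
LOC102162079 region, chr6:146069887-146070186: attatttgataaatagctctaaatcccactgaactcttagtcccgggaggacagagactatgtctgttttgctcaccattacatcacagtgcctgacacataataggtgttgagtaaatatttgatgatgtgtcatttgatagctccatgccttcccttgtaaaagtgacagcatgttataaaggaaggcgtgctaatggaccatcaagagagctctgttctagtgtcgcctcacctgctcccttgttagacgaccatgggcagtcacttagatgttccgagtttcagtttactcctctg
MYT1L region, chr3:131927769-131928068: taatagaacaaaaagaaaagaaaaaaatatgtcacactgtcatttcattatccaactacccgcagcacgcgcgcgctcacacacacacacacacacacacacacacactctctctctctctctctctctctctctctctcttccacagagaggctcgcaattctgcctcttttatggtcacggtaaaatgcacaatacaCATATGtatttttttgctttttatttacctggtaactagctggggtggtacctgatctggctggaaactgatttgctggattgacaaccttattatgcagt
ZBP1 region, chr17:58013077-58013376: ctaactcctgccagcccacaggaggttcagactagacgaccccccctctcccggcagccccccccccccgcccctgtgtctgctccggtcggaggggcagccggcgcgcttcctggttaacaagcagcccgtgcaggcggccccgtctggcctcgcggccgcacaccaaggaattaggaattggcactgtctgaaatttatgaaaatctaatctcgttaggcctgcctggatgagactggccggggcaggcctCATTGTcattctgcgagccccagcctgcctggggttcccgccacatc
TRNAV-UAC region, chr1:234181870-234182169: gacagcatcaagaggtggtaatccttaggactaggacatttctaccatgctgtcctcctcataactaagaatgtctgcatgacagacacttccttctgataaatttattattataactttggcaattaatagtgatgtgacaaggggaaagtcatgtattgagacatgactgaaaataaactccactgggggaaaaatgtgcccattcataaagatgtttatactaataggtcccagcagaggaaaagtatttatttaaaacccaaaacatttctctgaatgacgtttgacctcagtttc

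The 300 bp of the PAX3 region held 4 E-boxes, 3 of them CAGATG on 1 strand or the other and 1 CAGCTG, whereas the OLIG3 region held 1 each of the CAGATG, SOX, POU and homeobox motifs. The windows of LOC110261615, LOC102162079 and TRNAV-UAC held none of the 7 marked motifs, which says only that these letters are not in these windows.

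E21-only regions lay far from gene starts. The distance from the centre of a region to the nearest annotated gene start had a median of 68796 bp (interquartile range 24785 to 166720), against 40687 bp for the 37531 regions with peaks at E18 only, 59779 bp for the 6589 regions with peaks at E28 only, 23885 bp for the 78533 regions with a peak in all 6 libraries and 39916 bp over all merged regions. Only 97 E21-only regions (1.49%) lay within 2 kb of a gene start, compared with 18.1% of the regions shared by all libraries, and 2562 (39.4%) lay more than 100 kb away. Introns held 3350 of them (51.5%), sequence outside genes and promoters 2759 (42.4%), exons 255 (3.92%), 3′ UTRs 65, promoters (2 kb upstream of a start) 59 (0.907%) and 5′ UTRs 17. Over all merged regions these shares were 46.0% for introns, 37.6% for sequence outside genes and promoters, 11.7% for exons and 2.33% for promoters. Of the bases of the assembly, introns made up 50.3%, sequence outside genes and promoters 43.9%, exons 2.08% and promoters 1.99%. The shares of E21-only regions in introns and outside genes and promoters were thus near those of the assembly itself. E28-only regions were much like E21-only regions, with 48.7% in introns, 43.7% outside genes and promoters, 5.04% in exons and 0.986% in promoters. A wide region touches more elements, and by the element at its centre base alone 53.7% of E21-only regions were intronic against 51.8% of all merged regions. The genes that contained an E21-only region were long, with a median length of 256 kb against 159 kb for all merged regions inside genes. Among the 3696 E21-only regions inside a gene, that gene was also the one with the nearest start for 1954.

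**Figure D1:**
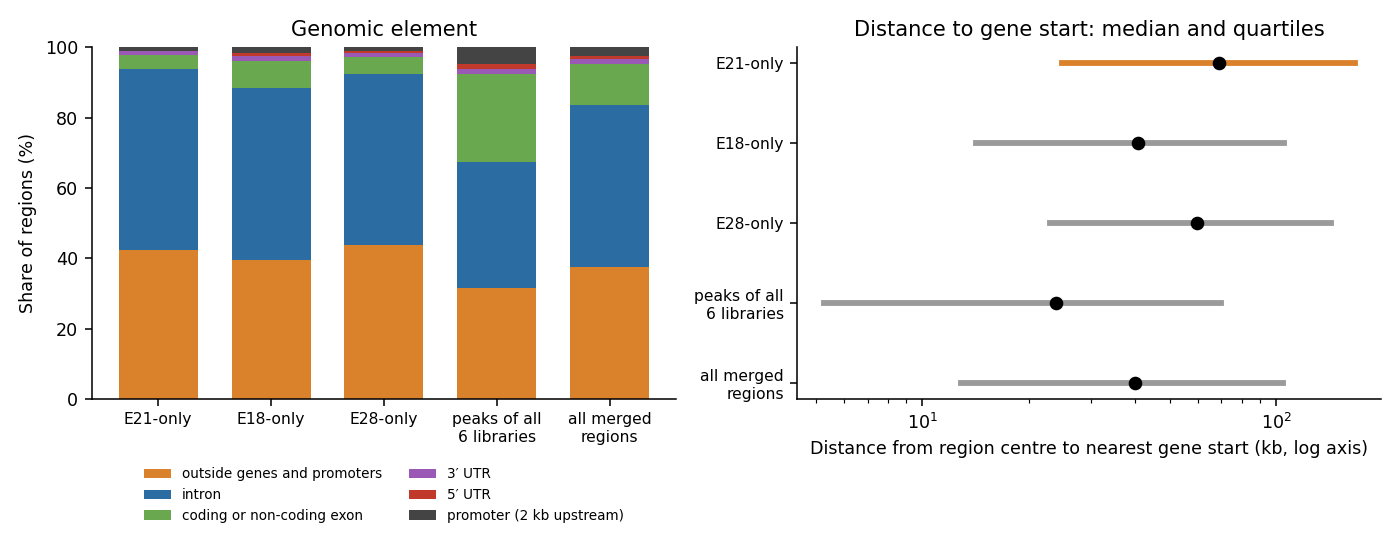
Left, share of regions (%) by genomic element for E21-only regions, E18-only regions, E28-only regions, regions with a peak in all 6 libraries and all merged regions. Right, distance from the region centre to the nearest gene start (kb, log axis), with points at the median and bars over the interquartile range; E21-only regions have the longest median of the 5 sets, 68796 bp, and a promoter share of 0.907%.

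Density along the genome was uneven but moderate. Among the autosomes it ranged from 2.15 E21-only regions per Mb on chromosome 2 to 3.45 on chromosomes 11 and 18, and chromosome X had 1.06 per Mb, where merged regions of every kind were also sparse (51.7 per Mb against 109 to 168 on autosomes). Another E21-only region lay within 10 kb of 528 of them (8.12%). Their GC content was low, with a median of 43.3% in the 300 bp window against 48.7% for E18-only, 42.0% for E28-only and 52.7% for shared regions, and repeats covered on average 13.5% of the window against 13.1% over all merged regions.

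E21-only regions were narrow and open in few cells. Their median width was 401 bp (interquartile range 319 to 506), against 443 bp for E18-only, 498 bp for E28-only and 1366 bp for shared regions, and 144 of them exceeded 1 kb. A barcode was called open in a region when it had at least 1 count there. The median share of open barcodes was 0.571% in E21 ZZ and 0.514% in E21 DZ, or 53 and 48 barcodes, and the shared regions had medians of 2.92% and 2.62%. Regions of the other single stages were also open in few cells, E18-only regions in 0.578% and 0.625% of the E18 barcodes and E28-only regions in 0.765% and 1.12% of the E28 barcodes (medians, ZZ and DZ). The range from the 10th to the 90th percentile was 0.172% to 1.02% in ZZ and 0.203% to 0.984% in DZ. Over 1% of the barcodes were open in 704 regions in ZZ (10.8%) and in 609 in DZ (9.36%). At the low end, 484 regions in ZZ and 366 in DZ had at most 10 open barcodes, 78 and 61 of them none, and the peak in these regions covered a median of only 30 and 38 bp. Membership of those regions therefore rested on a very short peak in 1 of the breeds.

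The openness of the same region differed between the breeds by more than counting error in many cases. Across the 6505 regions Pearson's r between the ZZ and DZ shares of open barcodes was 0.481 and Spearman's rho 0.423, a description over regions that share libraries, depth and peak calls. The exact interval of the ratio of shares left out 1 in 3127 regions, 1806 of them higher in ZZ and 1321 higher in DZ, and this interval covers counting error alone, since each breed had 1 library. That count had no limit on covered length. It was not made over other regions, so it is not a trait particular to E21-only regions. The covered length also differed, so ratios of CPM, counts scaled to the library total, were read over the 1762 regions with at least 200 counts and lengths within 1.5 times. Their median ZZ to DZ ratio was 1.06 (interquartile range 0.829 to 1.33), 38 exceeded 2 and 15 were under 0.5. The largest ratios were 3.28 in an intron of FAM19A5, a secreted protein of the nervous system, where 96 barcodes were open in ZZ and 28 in DZ, and 2.91 outside KY, a muscle protein, with 113 and 41 open barcodes. The smallest were 0.362 near LOC110255760, with 79 and 156 open barcodes, and 0.383 near LOC102157836, with 62 and 129. Cells of clusters described later made up different shares of the ZZ and DZ libraries, and the part of that in these ratios was not tested.

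**Figure D2:**
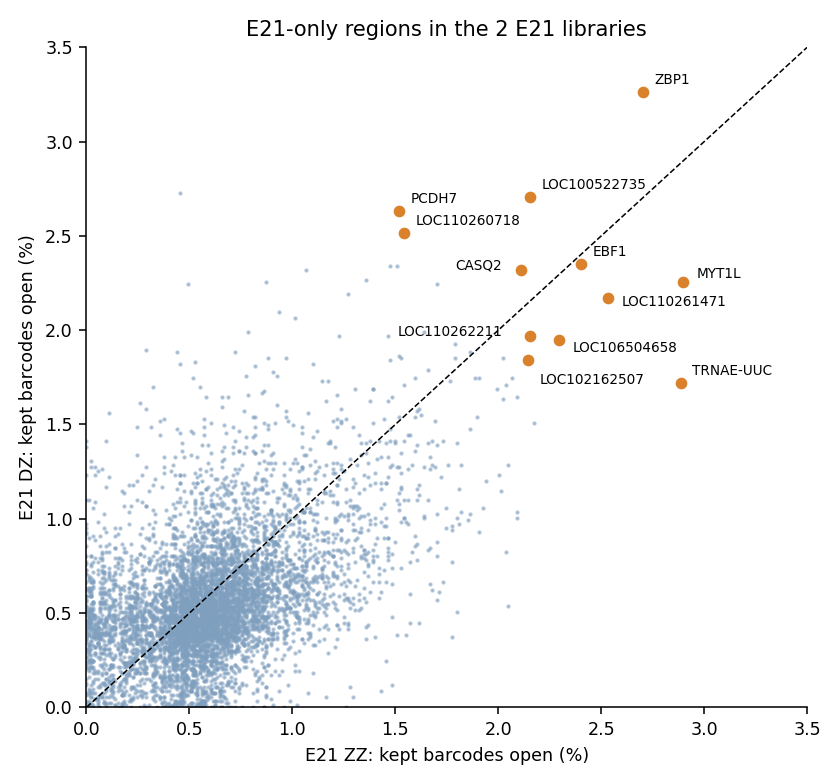
Share of kept barcodes open (%) in E21 ZZ (x axis) and E21 DZ (y axis) for each of the 6505 E21-only regions, with the 12 highest means in orange and the line of equality dashed. Most regions lie under 1% on both axes, and the ZBP1 region is the farthest out, at 2.70% and 3.26%.

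The boundary of the rule was not a wide gap. The nearest E18 or E28 peak was a median of 2435 bp away, within 1 kb for 1378 regions (21.2%) and within 10 kb for 5703 (87.7%). There were 32 E21-only regions with a peak of another stage less than 50 bp away, with a median width of 380 bp and median open shares of 0.490% in ZZ and 0.423% in DZ. Just outside the rule were 641 regions with both E21 peaks that another stage's peak overlapped by 50 bp or less. Their median width was 445 bp and their median open shares were 0.571% and 0.503%, close to the values over all E21-only regions.

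The most open E21-only region lay in an intron of PMEPA1, a membrane protein that dampens TGF-beta signaling, 27.1 kb upstream of the start of ZBP1 (chr17:58010888-58014168). It was open in 2.70% of E21 ZZ barcodes (exact 95% interval 2.38 to 3.05) and in 3.26% of E21 DZ barcodes (2.91 to 3.64), and it was also the widest, at 3281 bp, of which the ZZ peak covered 1476 bp. MYT1L, a zinc finger factor of postmitotic neurons, had the next most open region, at its promoter 140 bp upstream of the start (chr3:131927182-131928570). Its shares were 2.90% (2.57 to 3.26) in ZZ and 2.26% (1.97 to 2.58) in DZ. Other regions among the 12 most open were an intron of EBF1, a transcription factor gene, with 2.40% and 2.35%, an intron of MEIS2, a homeobox gene, with 2.53% and 2.17%, and a region 28.6 kb upstream of CASQ2, a calcium-binding protein of the sarcoplasmic reticulum, with 2.11% and 2.32%. The intervals of the breeds overlapped for EBF1, MEIS2 and CASQ2. They did not for an intron of SGCZ, with 2.89% in ZZ and 1.72% in DZ, or for a region 71.7 kb upstream of the protocadherin gene PCDH7, with 1.52% and 2.63%.

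Few E21-only regions lay at gene starts, and the most open of those were at MYT1L, UTS2B and genes without a name. After MYT1L came UTS2B, which encodes a urotensin-related peptide, with 2.09% of ZZ and 1.04% of DZ barcodes open 466 bp upstream of its start. The promoters of LOC102159032 (1.67% and 1.26%) and LOC100627410 (1.54% and 1.01%) and an exon of LOC106510067, 336 bp from its start (1.80% and 0.503%), followed. The promoter of MSTN, which encodes myostatin, a secreted inhibitor of muscle growth, came next (chr15:94629486-94630623, 1338 bp upstream of the start). It was open in 80 ZZ barcodes (0.862%, interval 0.684 to 1.07) and in 130 DZ barcodes (1.39%, 1.16 to 1.65), and the covered length was 463 bp in ZZ and 1138 bp in DZ, whose part in the difference was not tested. An exon of RBPJ, the DNA-binding effector of Notch signaling, was open 202 bp from the start of the gene in 1.06% and 0.984% of the barcodes.

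To see which cells carried the E21-only regions, the 18633 kept E21 barcodes were grouped into 10 clusters on regions with a peak in all 6 libraries, which include no E21-only region. Clusters were named from marker genes, and sequence within 100 kb of those genes had no part in the grouping. Cluster 0 (4259 barcodes) was sclerotome and cartilage-like, with PAX1, PAX9 and COL9A1 raised, 3 of 9 markers and just enough for the name. At the finer resolution of 0.6, 1921 barcodes had that name. Cluster 6 (1719) was myogenic-like, with MYMK, CHRNA1, CHRNG, CDH15, PAX7 and PAX3 raised, 6 of 12 markers, of which PAX7 and PAX3 were also raised in cluster 5 and PAX3 in cluster 7. The myogenic regulatory factors MYF5, MYF6, MYOD1 and MYOG were not among the raised markers of cluster 6. Cluster 5 (1923) was neural progenitor-like, with SOX2, PAX6, NES, HES5 and SOX3 raised. Clusters 4 (2082) and 8 (556) were neuron-like, with ELAVL3, STMN2, NEUROD1, NHLH1 and INA raised in both, and their leading genes included CHAT, the enzyme that makes acetylcholine, in cluster 4 and SCN10A, a sodium channel of sensory neurons, in cluster 8. Cluster 9 (304) was endothelial-like, with CDH5, KDR, SOX7 and PECAM1 raised. Clusters 1 to 3 raised fewer than 3 markers of any kind and stayed unnamed. Cluster 7 (637) raised the endothelial markers KDR, TIE1 and PECAM1 but had the neural crest factor SOX10 among its leading genes, and stayed unnamed too. The labeled tissue was somite, but clusters 4, 5 and 8 held 14.4%, 13.3% and 3.36% of the E21 ZZ barcodes and 7.99%, 7.32% and 2.61% of the E21 DZ barcodes.

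The openings of E21-only regions were found more often in neuron-like cells and less often in myogenic-like and endothelial-like cells than those of other regions of like openness. Taken as ratios, the differences in the other clusters were smaller. An opening is 1 barcode with a count in 1 region. The comparison set was the 44167 other regions with both E21 peaks whose mean open share lay between 0.268% and 0.939%. E21-only regions were not limited to that band. Regions used in the grouping of the barcodes were not left out of the comparison set, whereas no E21-only region was used there. The part of this in the differences was not tested. Cluster 4 held 18.8% of the E21-only openings in ZZ and 11.13% in DZ, against 10.7% and 6.20% of the openings of the comparison set. Cluster 8 held 7.10% and 5.48%, against 4.28% and 2.99%. In both neuron-like clusters and both breeds the E21-only share was the higher, by ratios of 1.66 to 1.84. The reverse held in myogenic-like cells, which held 7.86% in ZZ and 9.09% in DZ of the E21-only openings against 12.3% and 13.7%. Endothelial-like cells held 0.685% and 0.526%, against 1.92% and 1.63%, and neural progenitor-like cells 7.80% and 5.24%, against 10.9% and 6.38%. The unnamed cluster 7 was higher, with 8.66% and 6.51% against 7.22% and 4.93%. The unnamed clusters 1 and 3 were lower, cluster 1 with 14.9% and 13.5% against 18.0% and 15.9%, and cluster 3 with 5.82% and 10.1% against 6.80% and 11.7%. Cluster 2 was nearly level, with 8.88% and 12.5% against 8.98% and 12.9%. Sclerotome and cartilage-like cells held 19.5% and 25.9% of the E21-only openings, close to the 18.8% and 23.7% of the comparison set. At a resolution of 0.6 the cluster with that name held 9.81% and 11.8%, against 10.2% and 10.9% of the openings of all other regions with both E21 peaks. The direction thus differed between the breeds there. Against those same regions it also differed for cluster 0 at 0.3, with 19.5% against 21.1% in ZZ and 25.9% against 25.6% in DZ. Each value rests on 1 library per breed, so the differences have no test.

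**Figure D3:**
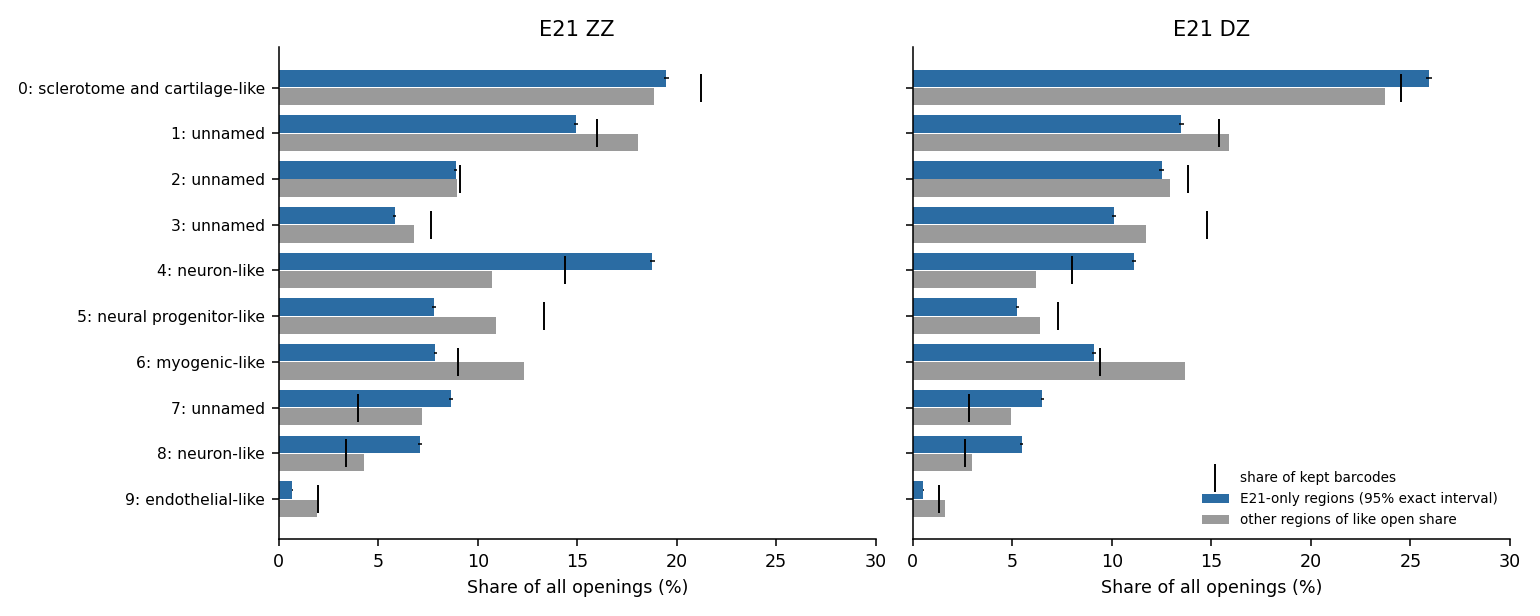
Share of all openings (%) that fell in each cluster of E21 barcodes, in E21 ZZ (left) and E21 DZ (right), for E21-only regions (blue, with exact 95% intervals) and for other regions of like open share (gray). The intervals treat the openings of a barcode as independent and are too narrow. Black ticks give the share of kept barcodes in the cluster. In both breeds the blue bars exceed the gray ones in clusters 0, 4, 7 and 8 (18.8% against 10.7% for cluster 4 in ZZ) and fall short of them in clusters 1, 2, 3, 5, 6 and 9.

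A region was assigned to a cluster when its open share there was at least 2 times that in all other E21 barcodes in each breed, and a region could be assigned to several. Such a region is called raised in that cluster. This held for 5686 E21-only regions (87.4%), against 72.1% of the comparison set. The most were assigned to neuron-like cluster 4 (1424) and cluster 8 (1246), and 1946 (29.9%) to either of them, against 15.2% of the comparison set. Sclerotome and cartilage-like cells had 1011 (15.5%, against 7.68% of the comparison set) and cluster 7 had 1156 (17.8%, against 15.2%). Clusters 1, 2 and 3 had 711 (10.9%, against 9.55%), 686 (10.5%, against 6.48%) and 368 (5.66%, against 4.71%). The share was below that of the comparison set in myogenic-like cells with 629 (9.67%, against 16.4%), in neural progenitor-like cells with 376 (5.78%, against 7.87%) and in endothelial-like cells with 99 (1.52%, against 7.51%). Regions with few open barcodes pass such a rule more easily, which is why the comparison set was limited to like openness. The limit was put on that set only and all E21-only regions were kept, so the match in openness is partial.

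Several E21-only regions were much more open in 1 kind of cell than in the rest. The PAX3 region (chr15:123969006-123969577) lay 224 kb downstream of the start of PAX3, a transcription factor of muscle progenitors and the dorsal neural tube, and 83 DZ and 75 ZZ barcodes were open there. In myogenic-like cells it was open in 42 of 838 ZZ barcodes (5.01%) and 50 of 881 DZ barcodes (5.68%), and in all other E21 barcodes in 0.391% and 0.390%, so a good part of its open barcodes lay outside that cluster. The OLIG3 region (chr1:26761141-26761711), 39.3 kb upstream of a helix-loop-helix factor of neural progenitors, was open in 54 neural progenitor-like ZZ barcodes (4.36%) and 74 DZ barcodes (10.8%), against 0.0621% and 0.150% elsewhere. The sharpest myogenic-like examples near named genes were a region 59.5 kb downstream of the prostaglandin receptor gene PTGER2 and a region upstream of SERPINA1, whose ZZ peak covered only 16 bp. The PTGER2 region had 6.81% against 0.0709% in DZ and 1.07% against 0.0118% in ZZ, where these shares stand for few open barcodes. An intron region assigned to LOC110259421 was clearer in both breeds, with 6.44% against 0.142% in ZZ and 8.17% against 0.154% in DZ.

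The 2 neuron-like clusters each had regions of their own. In cluster 4 the LOC110261615 region (chr7:84021597-84022113) was open in 6.67% of ZZ and 6.29% of DZ barcodes, against 0.214% and 0.198% elsewhere, and an intron region of LOC102167132 in 10.3% and 9.91%, against 0.377% and 0.233%. In cluster 8 the LOC102162079 region (chr6:146069892-146070188) was open in 12.8% and 14.3%, against 0.0891% and 0.110%, and a region overlapping the 3′ UTR of KCNA2, a voltage-gated potassium channel of axons, in 10.3% and 14.3%, against 0.0446% and 0.0879%. A region 69.3 kb from the start of RDH10, which makes retinal for retinoic acid synthesis, was open in 17.9% and 23.0% of cluster 8 barcodes and in 0.279% and 0.154% of all others. Some regions were raised in both clusters. The CASQ2 region was open in 8.99% of ZZ and 17.3% of DZ barcodes of cluster 4 and in 17.6% and 23.8% of those of cluster 8, so this region near a gene of the muscle calcium store was open mainly in neuron-like barcodes. In sclerotome and cartilage-like cells the TRNAV-UAC region (chr1:234181970-234182217) was open in 0.610% of ZZ and 1.83% of DZ barcodes, against 0.0137% and 0.0425% elsewhere. Its ZZ shares stand for few open barcodes.

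Near myogenic regulatory genes E21-only regions were about as frequent as other regions, and near sarcomere genes they were less frequent. The list of 28 myogenic regulatory and muscle progenitor genes was nearest to 15 E21-only regions (0.231%), against 0.208% of all merged regions, and 4 of the 15 were raised in myogenic-like cells, as were 9.67% of all E21-only regions. An intron of MEOX2, a somite homeobox gene, was open in 1.002% of ZZ and 0.610% of DZ barcodes, and an intron of EYA4 in 0.722% and 0.621%, but both were most raised in cluster 1 rather than in myogenic-like cells (EYA4 3.10% and 2.502% there, against 0.269% and 0.278% elsewhere). The 28 annotated sarcomere and excitation-contraction genes had only 2 E21-only regions (0.0307%, against 0.0946% of all merged regions), both in introns of RYR3, an intracellular calcium channel. The more open of them was raised in neuron-like cells and the other in cluster 7, where 8.09% of ZZ and 7.52% of DZ barcodes were open against 0.213% and 0.0881% elsewhere. HOX genes, which set position along the body axis, had none, and only 82 merged regions (0.0278%) were nearest to them.

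Neuronal gene lists were the ones in which E21-only regions were most frequent relative to all regions. The 32 annotated neuron and synapse genes were nearest to 38 E21-only regions (0.584%, against 0.289% of all merged regions), 5 of them at CSMD1, and 18 of the 38 were raised in a neuron-like cluster. A region nearest GRIK2, a glutamate receptor subunit, lay 1151.5 kb from its start and was open in 7.10% and 11.99% of neural progenitor-like barcodes, against 0.733% and 0.439% elsewhere. Axon guidance and adhesion genes had 66 (1.01%, against 0.783%), of which 6 were at DCC, the netrin receptor, and 16 of the 66 were raised in a neuron-like cluster, a lower share than the 29.9% of all E21-only regions. A DCC intron (chr1:101629136-101629828) was open in 1.52% and 1.54% of all barcodes, and in cluster 4 in 7.27% and 12.2%, against 0.553% and 0.616%. Of the 11 regions of neural progenitor genes (0.169%, against 0.223%), a region 70.8 kb upstream of PAX6 was raised in neural progenitor-like cells (5.00% and 4.24%, against 0.857% and 0.635%) and also in cluster 4, while one 136 kb upstream of SOX21 was raised in cluster 4 (6.07% and 7.497%, against 0.692% and 0.674%). These lists were chosen with results of these data known, so the counts are a description.

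Near somite and extracellular matrix genes the shares were close to those of all regions, and near sclerotome and cartilage genes the share was lower. The 26 somite and dermomyotome factors had 13 E21-only regions (0.1998%, against 0.219%), and 8 of the 13 were raised in the unnamed cluster 2, as were 686 (10.5%) of all E21-only regions, among them an intron region of GLI3, a hedgehog effector (2.96% and 1.94%, against 0.711% and 0.447%), and a region upstream of PAX9, a sclerotome factor, which was also raised in cluster 0. Sclerotome and cartilage genes had 5 (0.0769%, against 0.141%), 3 of them at SOX5. Extracellular matrix genes had 20 (0.307%, against 0.266%), of which 6 were at LAMA2, a laminin chain of the muscle basement membrane. The most open LAMA2 intron region was open in 1.86% of ZZ and 1.88% of DZ barcodes and was raised in cluster 1.

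Among signaling pathways, WNT genes had 25 E21-only regions (0.384%, against 0.452% of all merged regions), BMP and TGF-beta genes 21 (0.323%, against 0.377%), FGF genes 10 (0.154%, against 0.247%), retinoic acid genes 6 (0.0922%, against 0.111%), Notch genes 5 (0.0769%, against 0.117%) and hedgehog genes 4 (0.0615%, against 0.111%). WNT5A, a noncanonical ligand, was nearest to 6 of the WNT regions. The region 28.3 kb upstream of CTNNB1, the effector beta-catenin, was raised in sclerotome and cartilage-like cells (3.71% and 4.80%, against 0.328% and 0.411%). An intron region assigned to the ligand IHH and a region 11.08 kb from HEY1, a Notch target, were raised in myogenic-like cells. For IHH the values were 1.67% in ZZ and 5.79% in DZ, against 0.0947% and 0.260%, and for HEY1 they were 2.98% and 6.02%, against 0.201% and 0.579%. In both regions the ZZ peak was the shorter, 67 bp against 527 bp at IHH and 245 bp against 690 bp at HEY1. The region of FGF10, a ligand of limb and lung budding, and that of MITF, a melanocyte factor, were raised in cluster 7, FGF10 with 6.47% and 6.01% against 0.460% and 0.440%, and MITF with 5.66% and 6.39% against 0.494% and 0.650%. The MITF region was also raised in cluster 0 (1.32% and 1.66%, against 0.533% and 0.539%), which held more of its open barcodes, 26 and 38 against 21 and 17.

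The remaining lists were small. NFI, TEAD, MEIS, PBX and FOXP factors had 8 E21-only regions (0.123%, against 0.163%), neural crest and glia genes 9 (0.138%, against 0.138%), 6 of them at ERBB4, and epithelial genes 2 (0.0307%, against 0.0624%). The 24 annotated endothelial genes had 5 (0.0769%, against 0.168%). The region nearest CDH5, an endothelial cadherin, was raised in cluster 0, with 0.762% of ZZ and 3.14% of DZ barcodes in cluster 0 against 0.191% and 0.9495% elsewhere, and its ZZ peak was far shorter than the 834 bp of DZ. An intron of ERG, an endothelial ETS factor, was raised there too, with 2.74% and 1.61% in cluster 0 against 0.410% and 0.198%. The FLI1 region was raised in endothelial-like cells, where 4 ZZ and 6 DZ barcodes were open, and also in cluster 4.

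E21-only regions were spread over 4108 nearest genes, of which 2741 had 1 region and 126 had 5 or more. LOC102168091, a long noncoding RNA gene on chromosome 11, was nearest to 11, CNTNAP5, a neurexin-family gene, to 10 with 6 inside the gene, and FLRT2, an adhesion ligand in axon guidance, to 10 over 1054 kb. The other genes among the 10 with the most were LOC110256462 with 9 and FAM19A5, GOT2, GYPC, LOC110255760, LOC110260130 and LOC110261693 with 8 each. All 8 at LOC110260130, spread over 573 kb of chromosome 3, were raised in a neuron-like cluster, as were 5 of the 8 at FAM19A5 and 29.9% of all E21-only regions. The other genes among these 10 had 1 to 3 regions raised there, and the pair was singled out after these values were seen. E21-only regions made up 14.3% of all merged regions nearest to LOC110260130 and 11.6% of those nearest to LOC110255760, against 2.21% over the genome. These were the highest of the 10 genes, and the lowest was 5.23% at FAM19A5. The 10 were listed for their many E21-only regions, so shares above that of the genome follow at least in part from the choice. For 2864 E21-only regions the nearest gene had only a LOC symbol.

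Sequence motifs were counted in the 300 bp about the centre, on both strands, for 21 short motifs. E21-only regions exceeded all merged regions in 2 of the 3 E-boxes. CAGATG was in 36.0% of them, against 28.3% of all merged regions, 25.9% of E18-only and 27.2% of E28-only regions. CATATG was in 11.8%, against 7.22%, 5.82% and 11.08%, and CAGCTG, the E-box favored by myogenic factors, in 25.3% of both E21-only and all merged regions. In the comparison set of like openness CAGATG was in 31.2%, CATATG in 7.57% and CAGCTG in 29.0%, so CAGCTG was less frequent in E21-only regions than there. Homeobox motifs (TAATTA) were in 9.99%, against 6.55%, POU motifs (ATGCAAAT) in 2.52%, against 1.65%, and ACAATG SOX motifs in 17.7%, against 14.2%. GC-rich motifs were rare, with the SP and KLF motif GGGCGG in 5.53%, against 14.2%, and the CTCF core AGGGGGC in 4.04%, against 8.71%.

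Because E21-only regions were AT-rich, the same shares were taken over regions within the interquartile range of their GC content. There CAGATG was in 35.3% of E21-only and 30.4% of all merged regions, and CATATG in 12.3% and 9.61%, so the gap narrowed but remained. CAGCTG, which was level without the GC limit, was in 24.7% and 22.7%, and the homeobox motif in 9.90% and 8.57%. Other gaps were nearly lost, with 18.7% against 18.0% for the ACAATG SOX motif and 3.14% against 3.37% for the SP and KLF motif. TEAD motifs (CATTCC) were below all regions, 20.04% against 25.4%, and AP-1 motifs (TGANTCA) level, 15.2% against 15.2%. The shares by stage that follow were taken over the whole sets, with no limit on GC content. The GC content differed between these sets, and its part in the stage differences was not tested. Some motifs fell between the other stages. The nuclear receptor motif AGGTCA was in 33.5% of E18-only, 23.3% of E21-only and 10.3% of E28-only regions. The MEF2 motif TATTTTTA, a site of muscle and neuronal factors, went the other way, with 1.80%, 4.34% and 6.40%. Within the GC limit it was in 4.14% of E21-only and 3.59% of all merged regions. The NFI motif TTGGCA was in 27.9% of E28-only regions, but in 16.2% of E21-only and 15.5% of E18-only regions, and the GATA motif AGATAA was in 21.3% of E18-only but 14.9% of E21-only regions. The AP-1 motif was in 14.8% of E21-only regions, against 9.56% of E18-only, 9.61% of E28-only and 13.1% of all merged regions.

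**Figure D4:**
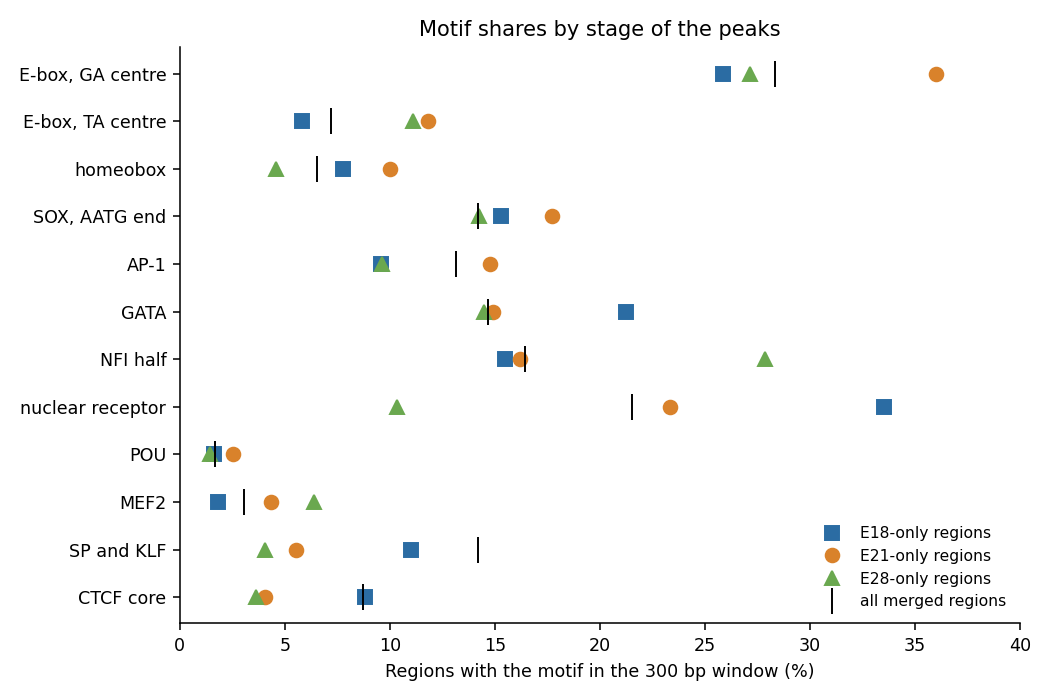
Share of regions (%) with at least 1 match to each of 12 motifs in the 300 bp window, for E18-only regions (blue squares), E21-only regions (orange circles), E28-only regions (green triangles) and all merged regions (black ticks). No limit was set on GC content. E21-only regions are the highest of the 3 for the GA-centre E-box (CAGATG, 36.0%), and lie between E18-only and E28-only regions for the nuclear receptor and MEF2 motifs.

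Motif shares of E21-only regions varied with the cluster in which the region was raised, and are given here beside those of all regions with both E21 peaks raised in the same cluster. No limit on GC content was set, and its part in the differences was not tested. In neural progenitor-like cells, for example, the GC-rich SP and KLF motif was in 6.12% of the E21-only regions, against 13.4% of all regions raised there. CAGCTG was in 47.7% of the 629 regions raised in myogenic-like cells and in 15.3% to 33.3% of those raised in other clusters, against 55.2% of all regions raised in myogenic-like cells. CAGATG was in 51.2% and 52.2% of the regions raised in the unnamed clusters 2 and 3 (49.0% and 44.9% of all regions raised there), and CATATG in 19.8% and 18.8% (14.8% and 13.03%). In myogenic-like cells CATATG was in 15.6%, against 7.71% of all regions raised there. In neuron-like cluster 4 the homeobox motif was in 16.4%, against 12.7%. In neural progenitor-like cells and in cluster 7 the SOX motif ACAAAG was in 41.2% and 45.6% of the regions, against 39.1% and 41.2%. The POU motif was in 11.97% of the neural progenitor-like regions, against 4.52% of all regions raised there, and in at most 3.65% of E21-only regions raised in another cluster. The ZIC motif CAGCAGG was in 20.8% of the regions raised in cluster 1, against 21.2%, and the RFX motif GTTGCC in 17.0% of those raised in neural progenitor-like cells, against 17.9%, so neither was higher in E21-only regions. The printed PAX3 and OLIG3 regions, raised in myogenic-like and neural progenitor-like cells, hold CAGCTG and the POU motif respectively, but the PTGER2 window, also from a region raised in myogenic-like cells, holds CAGATG and no CAGCTG. A match is a run of letters and not a shown binding site.

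**Figure D5:**
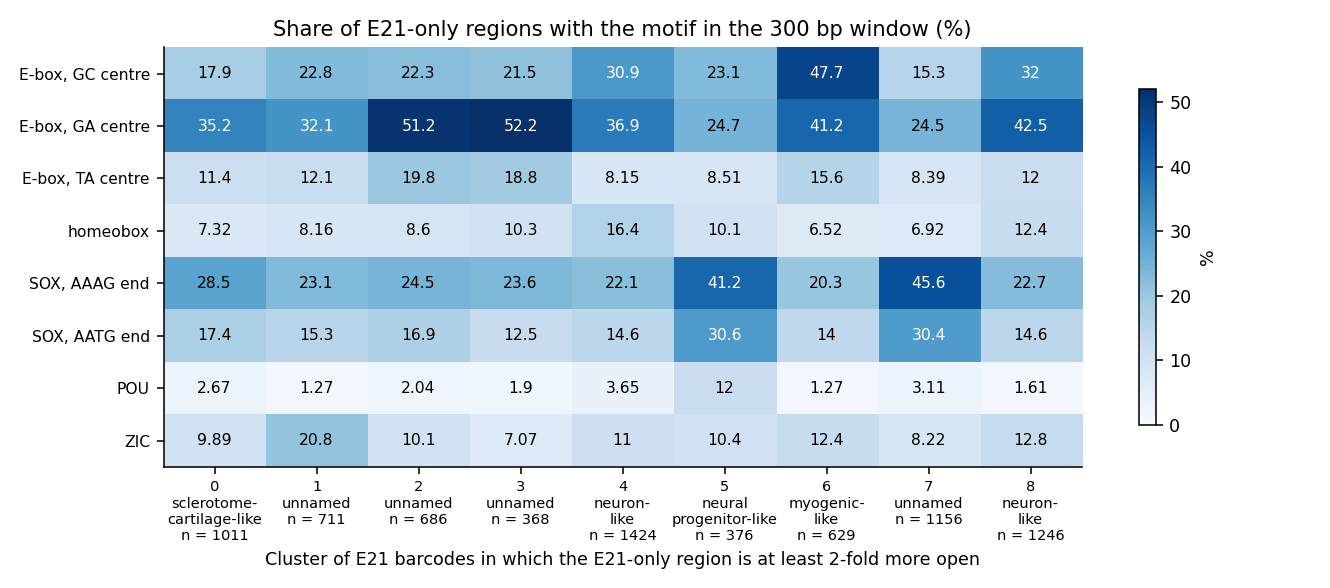
Share of E21-only regions (%, printed in each square and given by shade) with the motif named on the left, for regions at least 2-fold more open in the cluster named under each column; n is the number of regions. The darkest squares are CAGATG in clusters 2 and 3 (51.2% and 52.2%), CAGCTG in myogenic-like cluster 6 (47.7%) and ACAAAG in cluster 7 (45.6%).

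Whether accessible DNA around E21-only regions also changed with stage was tested on regions with a peak in all 6 libraries, which the rule did not use. Of these, 4754 lay within 10 kb of an E21-only region. With edgeR's quasi-likelihood test over all 78533 shared regions, a model of stage and breed, and a Benjamini-Hochberg threshold of 0.05, 330 of the 4754 (6.94%) were higher at E21 than at E18, against a background of 4.8% of all shared regions, and 66 (1.39%) were lower, against 1.78%. Between E21 and E28, 293 (6.16%) were higher at E21, against 4.61%, and 105 (2.21%) were lower, against 2.53%. The median log2 fold change near E21-only regions was 0.09 and 0.11, against -0.01 and 0.01 over all shared regions, and the medians of both breeds lay above those of all shared regions in each contrast. The contrasts share the E21 libraries.

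These calls followed how much of a region had been called as a peak. Of the calls near E21-only regions, 97.5% against E18 and 96.2% against E28 went in the direction of the covered length. Among regions with covered lengths within 1.5 times, 71 were higher and 19 lower of 2859 against E18 (2.48% and 0.665%, with 1.64% and 0.897% over all such regions), but 14 were higher and 48 lower of 2129 against E28 (0.658% and 2.25%, with 0.582% and 2.32%). With covered length as an offset the E28 contrast turned to 148 higher (3.11%) and 1342 lower (28.2%), as it did over all shared regions, with 2.26% higher and 30.2% lower. Without either E21 library edgeR called 0 regions in both contrasts, where 1060 (without ZZ) and 739 (without DZ) had an unadjusted p under 0.05 against E18 and 949 and 893 against E28; DESeq2 was not run without these libraries.

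The nearest shared region was called between E21 and E18 for 8 of the 88 named E21-only regions, in each case higher at E21, and between E21 and E28 for 8, of which 5 were higher and 3 lower at E21. Over all shared regions, 4.8% were higher and 1.78% lower against E18 and 4.61% higher and 2.53% lower against E28, and nothing is read from so few calls. Only 45 of the 88 had that region within 10 kb, and 4 and 6 of the called ones were among them. Beside the WNT5A region, a shared intronic region 4866 bp away had an E18 level of 2.04 CPM in ZZ and 1.31 in DZ. The E21 levels were 11.8 and 16.7 CPM, and the E28 levels 16.1 and 12.2 CPM. Both E18 libraries lay below all others, and the log2 fold change of E21 over E18 was 3.04 ± 0.35 (SE, edgeR adjusted p = 0.0204). The called stretch of it was 676 and 491 bp long at E18, but 1090 and 1156 bp long at E21. The shared region beside the ZBP1 region was called in both contrasts. Its E21 levels, summed over the called stretch of each library, were 14.3 CPM in ZZ and 16.7 in DZ. The E18 levels were 6.69 and 6.07 CPM and the E28 levels 6.45 and 5.71 CPM. The log2 fold changes were 1.21 ± 0.22 (edgeR adjusted p = 0.0384) and 1.33 ± 0.23 (edgeR adjusted p = 0.0333). The covered lengths were 4243 and 4535 bp at E21 against 840 to 1581 bp at the other stages. Per covered base the E21 levels were the lowest, so these fold changes do not show higher accessibility per base at E21.

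Beside the FGF9 region, whose gene encodes a growth factor ligand, the shared region 3966 bp away had E21 levels of 6.63 and 5.26 CPM against E28 levels of 2.06 and 1.02 CPM, with a log2 fold change of 2.0 ± 0.31 (adjusted p = 0.0290). Peaks covered 1686 and 1484 bp of it at E21 but 484 and 319 bp at E28. Per covered base the levels of the stages were close, so this fold change does not show higher accessibility per base at E21. Near the GRHL3 region, assigned to an epithelial factor but raised in both neuron-like clusters (38 of 86 open ZZ barcodes and 25 of 55 open DZ barcodes in cluster 8, and 33 and 17 in cluster 4), the shared region 3226 bp away was lower at E21. Its E21 levels were 2.13 and 2.02 CPM and its E28 levels 5.37 and 5.75 CPM over nearly equal lengths (725 and 711 bp against 666 and 705 bp), with a log2 fold change of -1.44 ± 0.29 (adjusted p = 0.0448). For the PAX3 region the nearest shared region, 5573 bp away, did not pass the test in either contrast (log2 fold changes 0.01 and -0.42, adjusted p = 0.994 and 0.553). The same was true of the OLIG3 region (-0.62 and 0.76, adjusted p = 0.202 and 0.135).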

How the data were processed

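Peaks and a matrix of counts per peak and barcode were used for each of 6 single-cell ATAC-seq libraries, on Sscrofa11.1. The authors deposited these raw counts of transposase cut sites in peaks from Cell Ranger ATAC 1.2.0 (matrix headers), and their processing notes also name Seurat 3.1.1 and Signac 0.2.2. Peaks were called per library, and each matrix lists only that library's own peaks, so regions and lists were compared by peak calls. The members and gene lists were chosen with earlier results of these data known.

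Peaks overlapping by at least 1 bp were merged. Barcodes with 2000 to 30000 counts were kept. The study's limits refer to fragments, and since 90.1% to 92.4% of the counts were even, limits of 4000 to 60000 were also tried. The study's mitochondrial, start-site, nucleosome and in-peak filters were not used and no doublet caller was run. Median counts per kept barcode were 8084.5 to 11452. Genes and sequences came from RefSeq release 106 (25859 genes, 19560 protein-coding). Any overlap assigned an element. Open shares and openings carry exact 95% binomial intervals. Those of open shares cover counting error only. Those of openings treat each opening as independent, although a barcode has many openings, all in the same cluster. They are therefore too narrow even for counting error.

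E21 barcodes were clustered (scikit-learn 1.9.0, leidenalg 0.10.2, resolution 0.3) and named where at least 3 markers of a kind were raised by a log2 fold of 0.5 and the leading genes did not go against it. Shared regions were tested with edgeR 4.0.16 in R 4.3.3 (quasi-likelihood, terms for stage and breed, 2 residual degrees of freedom), whose p-values measure only the spread between these libraries. DESeq2 1.42.0 was an alternative. The test was checked on simulated counts. Other steps used numpy 2.4.6, scipy 1.17.1, pandas 2.3.3 and matplotlib 3.10.9.

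Named regions were the 12 most open, the 6 most open at exons or promoters within 2 kb of a start, up to 3 per gene list, the 2 highest and 2 lowest breed ratios, the 3 with the highest cluster ratio per named cluster among those with at least 50 open barcodes there, and the 5 widest, besides the 10 genes nearest to the most. Sequences shown were the first of the most open, of the start-site regions and of each named cluster, and the most open one of a myogenic gene. A region overlapping a 3′ UTR was passed over for the next, and no endothelial-like region had enough open barcodes.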

Additional observations from a re-analysis of the deposited data

How the results depend on the processing

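In place of 6505 regions, the rule gave 2688 with peaks open in at least 1% of barcodes, 4103 with equal numbers of peaks per library and 11422 with a reciprocal overlap of 50%. Of these, 262, 1766 and 4428 had the same extent as a region of the main rule. Leaving out 1 library gave 7583 to 18991 (18991 without E21 ZZ, 10930 without E21 DZ). This takes away a condition of the rule, so all 6505 regions stayed and the number could only rise. Under the same 3 settings the intron share was 49.7%, 49.8% and 50.03%, the median width 756, 541 and 455 bp and the median open share, 0.543% as the mean of both breeds, 1.40%, 0.859% and 0.661%. The open share was 0.645% with 4000 to 60000 counts, 0.573% over all barcodes and 0.553% with no other-stage peak within 1 kb. Centre bases alone gave 53.7% intronic, and reciprocal overlap 40.1% outside genes and promoters. The median distance to a start was 111456 bp for coding genes only, 74705 bp with no other-stage peak within 1 kb, 72165 bp for the 1% limit and 51826.5 bp with reciprocal overlap.

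The 396 and 398 nearby shared regions called against E18 and E28 became 953 and 1069 with DESeq2, 920 and 1490 with covered length as an offset, 90 and 62 within 1.5 times of covered length, and 1510 and 1609 within 50 kb. With DESeq2, 15.5% were higher and 4.59% lower at E21 than at E18 (11.7% and 6.44% of all shared regions), and 14.8% and 7.66% against E28 (11.2% and 8.45%). With the offset these were 15.8% and 3.60% against E18 (13% and 4.69%), and 3.11% and 28.2% against E28 (2.26% and 30.2%). Within 50 kb 19202 regions were tested, with 6.29% higher and 1.57% lower against E18 and 5.91% and 2.47% against E28. Leaving out 1 library gave 0 to 1143 and 0 to 1079, with 0 by edgeR without either E21 library, 15 against E18 without E18 DZ and 147 without E18 ZZ. The cause was not tested. Counted over the whole shared part of the peaks, often shorter than 300 bp, CAGATG was in 30.0%, CATATG in 9.93%, CAGCTG in 20.1% and TAATTA in 9.27% of E21-only regions. At a resolution of 0.6, 6030 E21-only regions (92.7%) were raised in a cluster, against 68.7% of all regions with both E21 peaks. At 0.3 with a 3-fold threshold these were 4675 (71.9%), against 38.5%. The main setting gave 5686 (87.4%), against 60.9%. Centre bases, the like-openness set, openings per open region and the 1.5-times limit were chosen after seeing the data.

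Breed was already a term in the test, matching the stages within breed, and without it 444 and 413 nearby regions were called. Against E18 7.68% were higher and 1.66% lower (5.24% and 2.12% of all shared regions). Against E28 the shares were 6.33% and 2.36% (4.79% and 2.47%). Beyond this match by breed, no paired analysis by replicate number was possible because each stage and breed had 1 library. With 1 library per stage and breed, no difference between breeds has a replicate check, and openness of E21-only regions at E18 and E28 was not measured.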
